A study of Homo sapiens with 24 samples.

Results

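Kinesins are the motor proteins that use ATP to walk along microtubules or to take them apart. The genes described here are the 42 that the platform annotation names KIF followed by a number, or KIFC1, KIFC2 or KIFC3, of 18134 genes with a probe set of their own. Each gene was read from its brightest single-gene probe set over all arrays. A fixed list put 12 of them among the mitotic kinesins, which build the spindle, move chromosomes or finish cell division, and the other 30 are mostly motors of transport and of cilia. One of the 30, KIF25-AS1, is an antisense RNA that shares the name but codes for no motor. CENPE, a mitotic kinesin whose symbol does not begin with KIF, was read among the partner genes.

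The samples were 24 Affymetrix PrimeView arrays in 8 groups of 3. Both lines are human renal cell carcinoma: Caki-1 was grown from a metastasis in skin, while 769-P came from a primary tumour. Each was given 1 µM dasatinib for 6, 12 or 24 h, or DMSO, its solvent. Dasatinib inhibits SRC family and ABL kinases. The labels time only the dasatinib arrays. Within a line, the comparisons at 6, 12 and 24 h therefore share 3 DMSO arrays. A change with hours of dasatinib cannot be told apart from a change with hours in culture. Nothing in the labels says that the biological replicates came from separate cultures, so the p-values measure the spread between these samples. Each line stands for 1 tumour, and normal kidney cells were not analysed here.

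In dividing cells the mitotic kinesins act in a set order: some push the spindle poles apart, others align and shorten the links to chromosomes, and others gather at the midzone to cut the daughter cells apart. Their transcripts are made late in the cell cycle, peaking around the division itself, and many are known targets of the DREAM, B-MYB and FOXM1 regulators. The transport kinesins are mostly made through the whole cycle. Kinesin-1 carries vesicles and mitochondria, kinesin-2 builds cilia, kinesin-3 carries endosomes and synaptic cargo, and several kinesin-14 motors walk the other way, toward the minus end. The kidney tubule cell from which these tumours arise carries a primary cilium, which is taken down before division.

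Values are the authors' log2 signals, in which 1 unit is a 2-fold difference. Array medians lay between 6.008 and 6.084, and arrays of a group correlated at 0.9929 to 0.9975. Probe sets differ in affinity, so levels of different genes were not ranked against each other. The epithelial markers PAX8 and KRT18 averaged 10.43 and 11.8 in Caki-1 and 10 and 12.09 in 769-P. PAX2 averaged only 5.837 in Caki-1 and 6.692 in 769-P. Of 6 renal epithelial markers, 5 passed the filter described next in Caki-1 and 6 in 769-P, with EPCAM at 5.204 in Caki-1 and 8.371 in 769-P. Of 4 leukocyte markers 2 and 1 passed, of 4 endothelial markers 2 and 3, and of the 2 of red cells and platelets both in each line, with PTPRC at 3.451 and 3.479 and HBB at 7.265 and 7.323. Passing the filter thus does not by itself show that a gene is expressed. A gene was tested where its mean in a line passed the 40th percentile (5.379 in Caki-1 and 5.361 in 769-P), which 36 members passed in Caki-1 and 35 in 769-P, and it was called where limma's adjusted p over all tested genes was under 0.05. Log2 changes are given ± SE, from 3 arrays against 3.

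At 24 h nearly all of the mitotic kinesins were lower under dasatinib in both lines. In Caki-1, 11 of 12 fell, with a median log2 change of -2.26, against 29.9% of 12423 genes called lower and a median of 0.08 over all genes. In 769-P, 11 of 12 fell as well, with a median of -2.88, against 24.6% of 12354 genes and a median of 0.04. The 11 were the same genes in both lines, and KIF18B was the exception in each. Of the other kinesins, 9 of 24 rose in Caki-1 (32.9% of all genes did) and 6 fell, and in 769-P 8 of 23 rose (31.1% of all genes) and 4 fell. Their medians were 0.12 and 0.10. In a bulk sample, fewer cells of a type and less RNA per cell cannot be told apart.

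**Figure D1:**
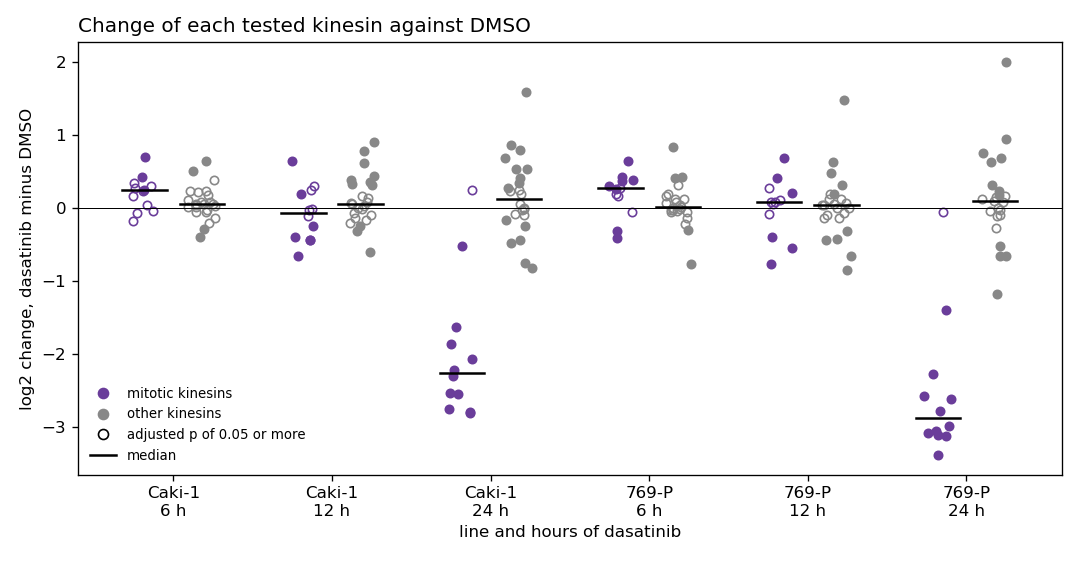
Log2 change of each tested kinesin, dasatinib minus DMSO, by line and time (x axis) in log2 units (y axis). Purple points are the 12 mitotic kinesins, grey points the others, open points those with an adjusted p of 0.05 or more, and bars the medians. The mitotic points stand around 0 at 6 and 12 h and around medians of -2.26 (Caki-1) and -2.88 (769-P) at 24 h, while the other kinesins keep medians near 0.

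The promoters of the mitotic kinesins are shown because these genes moved together. RefSeq windows (GRCh38.p14) were at hand for 34 of 42 members, and the 250 bases before each start were read on both strands. TTTGAA or TTCGAA, the letters of the cell cycle genes homology region that DREAM and B-MYB complexes are known to bind, stood in 6 of 12 mitotic kinesins (50%), in 1 of 22 other kinesins (4.55%) and in 17.2% of 27305 genes. CCAAT, the NF-Y box, stood in 10 of 12 (83.3%), 7 of 22 (31.8%) and 37% of genes. The E2F letters TTTCGCGC or TTTGGCGC stood in 1 of 12, in 0 of 22 and in 1.2% of genes. In the 100 bases before the start, given 5′ to 3′ in the gene's direction, capitals mark either hexamer and CCAAT on either strand (ATTGG and TTCAAA are the reverse readings):
KIF11, chr10:92593030-92593129, plus strand: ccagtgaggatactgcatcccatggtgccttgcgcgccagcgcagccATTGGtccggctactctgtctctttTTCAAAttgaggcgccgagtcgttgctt
KIF15, chr3:44761694-44761793, plus strand: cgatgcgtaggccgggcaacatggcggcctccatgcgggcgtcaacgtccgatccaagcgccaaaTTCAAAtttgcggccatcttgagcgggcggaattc
KIF18A, chr11:28108157-28108256, minus strand: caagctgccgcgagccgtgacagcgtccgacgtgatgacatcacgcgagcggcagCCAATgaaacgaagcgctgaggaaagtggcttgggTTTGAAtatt
KIF22, chr16:29790651-29790750, plus strand: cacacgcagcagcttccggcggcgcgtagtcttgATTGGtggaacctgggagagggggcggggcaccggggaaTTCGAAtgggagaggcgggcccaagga
KIF23, chr15:69414249-69414348, plus strand: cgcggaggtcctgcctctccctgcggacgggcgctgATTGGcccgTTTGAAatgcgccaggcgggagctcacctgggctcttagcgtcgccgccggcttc
KIF4A, chrX:70290004-70290103, plus strand: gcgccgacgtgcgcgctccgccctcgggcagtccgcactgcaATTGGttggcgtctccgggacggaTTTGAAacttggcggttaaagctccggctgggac
KIF20A has CCAAT but no hexamer, and its gene fell at 24 h. KIF18B is the one whose gene was not called in either line. KIF5B is the single other kinesin with the hexamer. It fell at 24 h in both lines, as did KIF24, KIF1C and KIF2A, whose windows hold neither hexamer. The promoters of KIF20A, KIF18B and KIF5B are set beside the 6, with KIF5B shown over 150 bases:
KIF20A, chr5:138179012-138179111, plus strand: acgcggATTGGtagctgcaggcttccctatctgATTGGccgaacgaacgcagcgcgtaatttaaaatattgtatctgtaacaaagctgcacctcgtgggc
KIF18B, chr17:44947774-44947873, minus strand: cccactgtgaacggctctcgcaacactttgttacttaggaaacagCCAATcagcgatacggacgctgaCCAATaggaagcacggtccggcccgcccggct
KIF5B, chr10:32056426-32056575, minus strand: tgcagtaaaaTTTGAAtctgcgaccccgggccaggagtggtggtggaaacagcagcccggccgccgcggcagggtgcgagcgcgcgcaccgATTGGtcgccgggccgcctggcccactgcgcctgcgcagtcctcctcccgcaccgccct
The hexamer began 10 to 55 bases before the start in the 6 mitotic kinesins (position -10 in KIF18A and -55 in KIF23) and at position -140 in KIF5B. The window of a second KIF22 start holds the same TTCGAA at position -244. KIF14, KIF20A, KIF20B, KIF2C and KIFC1 fell at 24 h in both lines with neither hexamer in the window, and KIF2C had no CCAAT either. A match describes these letters only. Windows for KIF13B, KIF19, KIF21B, KIF26B, KIF27, KIF5A, KIFC2 and KIFC3 were not used here.

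Among the motors that set up the spindle, KIF11 (Eg5) slides the poles apart, KIF15 holds them apart, and KIFC1 (HSET) pulls toward the minus end and bundles the poles. KIF11 read 10.38, 10.22 and 10.28 under DMSO, 10.58, 10.51 and 10.51 at 6 h, 10.27, 9.93 and 9.94 at 12 h and 8.24, 7.94 and 8.08 at 24 h in Caki-1. In 769-P it read 10.62, 10.62 and 10.57 under DMSO, 10.91, 10.96 and 10.73 at 6 h, 10.76, 10.69 and 10.54 at 12 h and 7.76, 7.47 and 7.63 at 24 h. In both lines every 24 h array lay below every other array. The 24 h change in KIF11 was -2.21 ± 0.10 (adjusted p = 1.48e-10) in Caki-1 and -2.98 ± 0.09 (adjusted p = 4.04e-13) in 769-P, 4.63-fold and 7.9-fold lower.

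In Caki-1, KIF15 signals were 7.97, 7.86 and 7.97 under DMSO, 8.20, 7.88 and 7.85 at 6 h, 7.73, 7.50 and 7.25 at 12 h and 5.41, 5.16 and 4.8 at 24 h. 769-P gave 7.68, 7.88 and 7.70 under DMSO, 7.67, 7.77 and 7.67 at 6 h, 7.17, 7.32 and 7.14 at 12 h and 4.71, 4.64 and 4.65 at 24 h. In each line the 12 h arrays already lay below the DMSO arrays, and the 24 h arrays lay well below those. KIF15 changed by -2.81 ± 0.15 (adjusted p = 9.29e-10) at 24 h in Caki-1 and by -3.08 ± 0.10 (adjusted p = 6.05e-13) in 769-P. Its 24 h means, 5.124 in Caki-1 and 4.668 in 769-P, lay under the filter levels of 5.379 and 5.361. Whether background signal limited the size of these falls was not tested.

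Caki-1 arrays gave KIFC1 values of 8.24, 7.97 and 7.80 under DMSO, 8.44, 8.37 and 8.25 at 6 h, 8.10, 7.81 and 7.77 at 12 h and 6.48, 6.47 and 6.18 at 24 h. 769-P arrays read 8.98, 8.71 and 8.48 under DMSO, 9.0, 8.83 and 8.82 at 6 h, 8.62, 8.78 and 8.52 at 12 h and 5.91, 5.82 and 6.60 at 24 h. Only the 24 h arrays of KIFC1 stood apart from DMSO in each line on the low side. Its 24 h change was -1.63 ± 0.13 (adjusted p = 3.21e-08) in Caki-1 and -2.61 ± 0.17 (adjusted p = 3.18e-09) in 769-P, and the DMSO arrays of Caki-1 read below those of 769-P.

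A second set acts on chromosomes and on the microtubules that hold them. KIF22 (Kid) and KIF4A are chromokinesins that sit on chromosome arms, KIF18A damps the plus ends for alignment, KIF2C (MCAK) removes tubulin from wrongly attached ends, and KIF18B works with KIF2C on astral microtubules. For KIF2C the Caki-1 arrays read 10.89, 10.40 and 10.54 under DMSO, 11.16, 10.82 and 10.76 at 6 h, 10.90, 10.44 and 10.38 at 12 h and 8.56, 8.10 and 8.27 at 24 h. The 769-P arrays of KIF2C read 10.62, 10.70 and 10.50 under DMSO, 10.89, 10.96 and 10.87 at 6 h, 10.86, 10.89 and 10.71 at 12 h and 7.54, 7.53 and 7.46 at 24 h. The first times overlapped or exceeded DMSO, and the 24 h arrays fell below every other array of the line. KIF2C changed by -2.30 ± 0.16 (adjusted p = 9.76e-09) in Caki-1 and by -3.10 ± 0.07 (adjusted p = 8.33e-14) in 769-P at 24 h.

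KIF4A read 9.71, 9.33 and 9.46 under DMSO, 10.23, 9.79 and 9.77 at 6 h, 10.06, 9.67 and 9.64 at 12 h and 7.76, 7.58 and 7.57 at 24 h in Caki-1. In 769-P it read 9.62, 9.55 and 9.49 under DMSO, 9.88, 9.93 and 9.71 at 6 h, 9.73, 9.78 and 9.39 at 12 h and 6.97, 6.69 and 6.66 at 24 h. All 24 h arrays of KIF4A lay below all DMSO arrays. The 24 h change was -1.86 ± 0.14 (adjusted p = 2.06e-08) in Caki-1 and -2.78 ± 0.11 (adjusted p = 1.06e-11) in 769-P. Its second, dimmer probe set moved the same way by less, -0.63 and -0.90.

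In Caki-1, KIF18A signals were 9.15, 8.98 and 9.13 under DMSO, 9.56, 9.13 and 9.05 at 6 h, 9.03, 8.53 and 8.40 at 12 h and 6.88, 6.08 and 6.66 at 24 h. 769-P gave 9.19, 9.05 and 8.90 under DMSO, 9.39, 9.48 and 9.37 at 6 h, 9.52, 9.57 and 9.25 at 12 h and 7.03, 6.79 and 6.50 at 24 h. At 12 h the lines parted, with Caki-1 arrays at or under DMSO and 769-P arrays above it. At 24 h KIF18A changed by -2.55 ± 0.19 (adjusted p = 2.7e-08) in Caki-1 and by -2.27 ± 0.13 (adjusted p = 4.16e-10) in 769-P.

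Caki-1 arrays gave KIF22 values of 8.38, 8.31 and 8.29 under DMSO, 8.67, 8.49 and 8.58 at 6 h, 8.58, 8.48 and 8.52 at 12 h and 7.81, 7.86 and 7.74 at 24 h. 769-P arrays read 8.73, 8.49 and 8.44 under DMSO, 8.98, 9.01 and 8.94 at 6 h, 8.74, 8.97 and 8.79 at 12 h and 7.47, 7.12 and 6.90 at 24 h. The 24 h arrays were again the lowest of each line, with a smaller drop than in the other mitotic kinesins that fell. KIF22 changed by -0.52 ± 0.08 (adjusted p = 2.53e-05) in Caki-1 and by -1.39 ± 0.12 (adjusted p = 1.16e-07) in 769-P at 24 h. Its 2 other probe sets gave -0.99 and -0.13 in Caki-1 and -1.67 and -0.59 in 769-P.

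For KIF18B the Caki-1 arrays read 6.70, 6.87 and 6.63 under DMSO, 6.60, 6.59 and 6.88 at 6 h, 6.98, 6.89 and 7.08 at 12 h and 6.88, 7.09 and 6.96 at 24 h. The 769-P arrays of KIF18B read 6.86, 6.94 and 6.95 under DMSO, 7.25, 7.16 and 6.92 at 6 h, 7.07, 6.86 and 7.04 at 12 h and 6.72, 6.89 and 6.99 at 24 h. These arrays ran between 6.59 and 7.25 with no low group at 24 h. KIF18B was called in none of the comparisons. At 24 h its change was 0.25 ± 0.11 (adjusted p = 0.0595) in Caki-1, with a 95% interval of 0.02 to 0.48, and -0.05 ± 0.11 (adjusted p = 0.732) in 769-P, with an interval of -0.29 to 0.18. Both intervals lie above the change of each of the other 11 in the same line. All 4 of its probe sets gave between 0.15 and 0.25 in Caki-1 and between -0.15 and -0.04 in 769-P. Whether these probe sets read the transcript was not tested.

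The last set gathers at the midzone and the midbody. KIF20A (MKLP2) carries the chromosomal passenger complex there, KIF23 (MKLP1) is the motor of centralspindlin, and KIF14 and KIF20B take part in abscission. KIF20A read 10.14, 9.51 and 9.59 under DMSO, 10.87, 10.25 and 10.21 at 6 h, 10.75, 10.27 and 10.14 at 12 h and 7.81, 7.58 and 7.67 at 24 h in Caki-1. In 769-P it read 10.42, 10.19 and 10.15 under DMSO, 10.92, 10.93 and 10.81 at 6 h, 11, 11.07 and 10.73 at 12 h and 7.62, 7.80 and 7.62 at 24 h. In 769-P every array at 6 and 12 h lay above every DMSO array, and in both lines the 24 h arrays lay below all others. KIF20A changed by -2.06 ± 0.19 (adjusted p = 2.51e-07) in Caki-1 and by -2.57 ± 0.10 (adjusted p = 5.23e-12) in 769-P at 24 h.

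In Caki-1, KIF23 signals were 10.51, 10.36 and 10.54 under DMSO, 10.61, 10.30 and 10.33 at 6 h, 10.32, 10.02 and 9.86 at 12 h and 8.33, 7.61 and 7.86 at 24 h. 769-P gave 10.54, 11 and 10.63 under DMSO, 10.40, 10.48 and 10.34 at 6 h, 10.46, 10.28 and 10.27 at 12 h and 7.31, 7.30 and 7.42 at 24 h. The 24 h arrays were the lowest by more than 1 unit in each line. For KIF23 the 24 h change was -2.53 ± 0.15 (adjusted p = 2.92e-09) in Caki-1 and -3.38 ± 0.10 (adjusted p = 6.01e-13) in 769-P, a 10.4-fold lower signal. Its other probe set gave -3.05 and -3.71.

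Caki-1 arrays gave KIF14 values of 8.99, 8.52 and 8.81 under DMSO, 9.34, 8.91 and 8.91 at 6 h, 8.98, 8.76 and 8.55 at 12 h and 6.46, 5.74 and 5.88 at 24 h. 769-P arrays read 9.53, 9.44 and 9.46 under DMSO, 9.88, 9.96 and 9.72 at 6 h, 9.66, 9.61 and 9.47 at 12 h and 6.60, 6.18 and 6.28 at 24 h. Here too only the 24 h arrays lay below DMSO. The 24 h change of KIF14 was -2.75 ± 0.18 (adjusted p = 6.01e-09) in Caki-1 and -3.12 ± 0.11 (adjusted p = 1.46e-12) in 769-P.

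For KIF20B the Caki-1 arrays read 8.65, 8.49 and 8.79 under DMSO, 8.69, 8.28 and 8.43 at 6 h, 8.17, 7.93 and 7.88 at 12 h and 5.99, 5.72 and 5.85 at 24 h. The 769-P arrays of KIF20B read 8.86, 9.15 and 8.95 under DMSO, 8.55, 8.63 and 8.55 at 6 h, 8.28, 8.21 and 8.18 at 12 h and 6.04, 6.17 and 5.61 at 24 h. KIF20B stepped down at each time in 769-P, where no group overlapped the one before it, and from 12 h in Caki-1. Its change at 24 h was -2.79 ± 0.12 (adjusted p = 1.48e-10) in Caki-1 and -3.05 ± 0.12 (adjusted p = 1.19e-11) in 769-P. Leaving out any 1 array kept 11 mitotic kinesins called lower at 24 h in both lines.

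**Figure D2:**
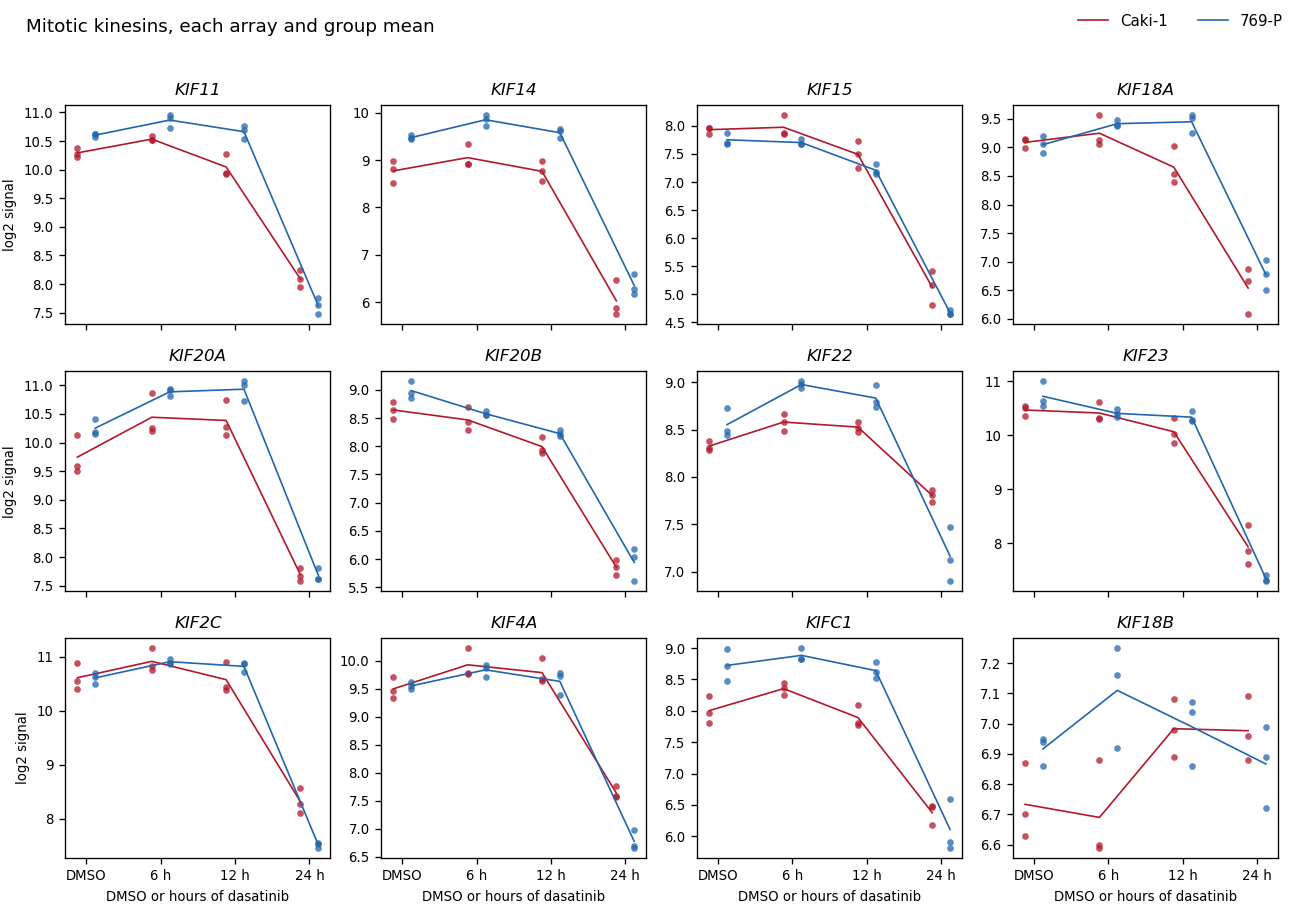
Log2 signal (y axis, a scale of its own in each panel) of the 12 mitotic kinesins on each of 24 arrays under DMSO and after 6, 12 and 24 h of dasatinib (x axis), with lines through group means, Caki-1 in red and 769-P in blue. In 11 panels both lines drop between 12 and 24 h, and in the KIF18B panel all arrays stay between 6.59 and 7.25.

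The earlier times looked different, with small rises as well as falls. At 6 h in Caki-1, KIF20A (0.70 ± 0.19, adjusted p = 0.0148), KIF4A (0.43 ± 0.14, adjusted p = 0.0312) and KIF22 (0.25 ± 0.08, adjusted p = 0.0228) rose, 3 of 12 against 12.3% of all genes, and 0 of 12 fell (14% of genes). In 769-P 6 of 12 rose at 6 h (16.4% of genes): KIF20A (0.64 ± 0.10, adjusted p = 0.00011), KIF22 (0.43 ± 0.12, adjusted p = 0.0164), KIF14 (0.38 ± 0.11, adjusted p = 0.0118), KIF18A (0.37 ± 0.13, adjusted p = 0.0344), KIF2C (0.30 ± 0.07, adjusted p = 0.00595) and KIF11 (0.26 ± 0.09, adjusted p = 0.0316). KIF20B (-0.41 ± 0.12, adjusted p = 0.0186) and KIF23 (-0.32 ± 0.10, adjusted p = 0.0301) fell there (14.5% of genes). KIF4A gave 0.28 ± 0.11 (adjusted p = 0.0654) and, with the replicate numbers as a block, an adjusted p of 0.0156.

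Single arrays carried part of these 6 h calls. All 3 Caki-1 calls were lost without DMSO replicate 2 (adjusted p = 0.077, 0.14 and 0.0787 for KIF20A, KIF4A and KIF22), without DMSO replicate 3 (0.0679, 0.0948 and 0.078) or without 6 h replicate 1 (0.0676, 0.139 and 0.0865). In 769-P the number that rose ran from 2 to 7 as single arrays were left out, and the KIF20A and KIF2C calls were held in each case. KIF11, KIF18A, KIF22 and KIF14 were each lost without 6 h replicate 2 (adjusted p = 0.129, 0.11, 0.054 and 0.0579), and KIF23 and KIF20B without DMSO replicate 2 (0.18 and 0.0966).

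By 12 h the midzone motors KIF20B, KIF23 and the spindle motor KIF15 had fallen in both lines, while KIF20A stayed above DMSO. In Caki-1, KIF20B (-0.65 ± 0.12, adjusted p = 0.000421), KIF15 (-0.44 ± 0.15, adjusted p = 0.0271), KIF23 (-0.40 ± 0.15, adjusted p = 0.0431) and KIF11 (-0.25 ± 0.10, adjusted p = 0.0446) fell, 4 of 12 against 24.4% of genes, and KIF20A (0.64 ± 0.19, adjusted p = 0.0131) and KIF22 (0.20 ± 0.08, adjusted p = 0.0436) rose, 2 of 12 against 24.1%. In 769-P the 3 that fell (22.6% of genes did) were KIF20B (-0.77 ± 0.12, adjusted p = 8.96e-05), KIF15 (-0.54 ± 0.10, adjusted p = 0.000193) and KIF23 (-0.39 ± 0.10, adjusted p = 0.00568). KIF20A (0.68 ± 0.10, adjusted p = 2.52e-05), KIF18A (0.41 ± 0.13, adjusted p = 0.0138) and KIF2C (0.21 ± 0.07, adjusted p = 0.0258) rose there (24.9% of genes). Counts of 2 to 4 of 12 lie near the shares of all genes.

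In Caki-1 at 12 h the falls of KIF11, KIF23 and KIF15 were lost without 12 h replicate 3 (adjusted p = 0.167, 0.172 and 0.135), and those of KIF23 and KIF15 also without DMSO replicate 1 (0.0959 and 0.0653), DMSO replicate 3 (0.121 and 0.074) or 12 h replicate 2 (0.107 and 0.0582). KIF23 was further lost without DMSO replicate 2 (0.0525), 6 h replicate 3 (0.0528) or 24 h replicate 3 (0.0531). KIF11 was further lost without any of 7 other single arrays of the line, with adjusted p from 0.0535 without DMSO replicate 2 to 0.176 without 12 h replicate 2. The KIF20A rise was lost without 12 h replicate 1 (0.0607), DMSO replicate 2 (0.0666) or DMSO replicate 3 (0.0586). The KIF22 rise was lost without DMSO replicate 2 (0.113), DMSO replicate 3 (0.119), 6 h replicate 3 (0.0549) or 12 h replicate 1, 2 or 3 (0.115, 0.0658 and 0.0888). In 769-P the KIF18A and KIF2C rises were lost without DMSO replicate 3 (0.0636 and 0.125) or 12 h replicate 2 (0.0658 and 0.101), and that of KIF2C also without 12 h replicate 1 (0.0795).

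The steps between times, which use no DMSO array, placed the drop between the 12 and 24 h arrays. With no DMSO array timed, hours of dasatinib and hours in culture cannot be told apart in these steps. Between 12 and 24 h in Caki-1, 11 of 12 mitotic kinesins fell (14.2% of genes) with a median of -2.13, led by KIF14 (-2.74 ± 0.18, adjusted p = 6.34e-08) and KIF20A (-2.70 ± 0.19, adjusted p = 1.37e-07). In 769-P 11 of 12 fell over the same step (10.8% of genes) with a median of -2.77, led by KIF2C (-3.31 ± 0.07, adjusted p = 1.12e-13), KIF20A (-3.26 ± 0.10, adjusted p = 7.42e-13) and KIF14 (-3.23 ± 0.11, adjusted p = 1.6e-12). KIF22 took the smallest step of those called, -0.72 ± 0.08 (adjusted p = 7.3e-06) in Caki-1 and -1.67 ± 0.12 (adjusted p = 5.88e-08) in 769-P.

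From 6 to 12 h the steps were small. In Caki-1 5 of 12 fell (14.5% of genes), which were KIF18A, KIF11, KIF15, KIF20B and KIFC1, with changes from -0.59 to -0.46 and adjusted p from 0.00198 to 0.035. With the replicate numbers as a block KIF2C, KIF23 and KIF14 were called lower as well (adjusted p = 0.00128, 0.0157 and 0.0433). Without Caki-1 12 h replicate 3, KIF18A, KIF15, KIF20B and KIFC1 were lost (0.153, 0.15, 0.0508 and 0.0689). In 769-P 1 of 12 fell (10.2% of genes), KIF15 with -0.49 ± 0.10 (adjusted p = 0.00187), and the block added KIF20B (0.0238) and KIF14 (0.0383).

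**Figure D3:**
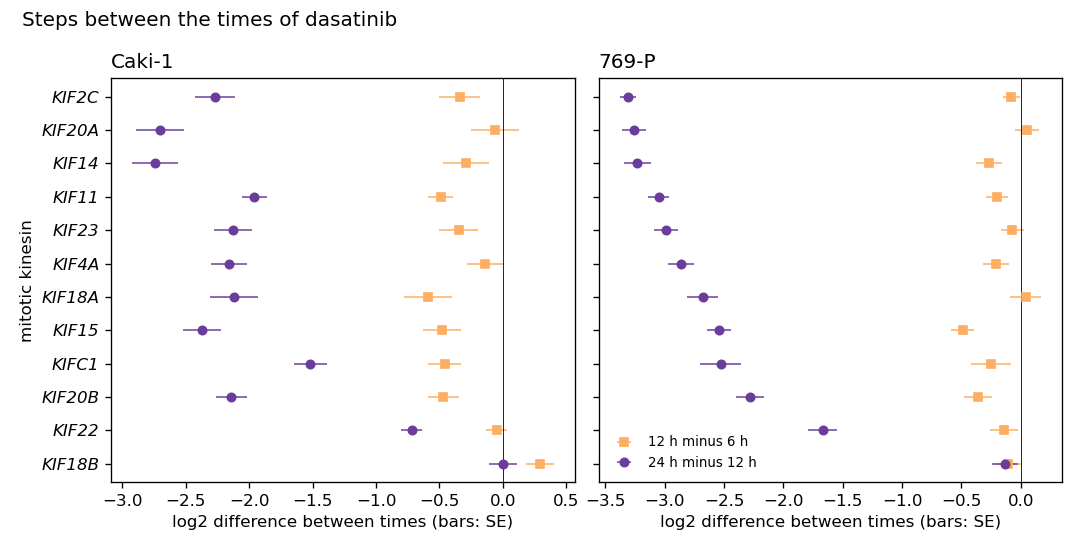
Log2 difference between times of dasatinib for each mitotic kinesin (rows), 12 h minus 6 h in orange squares and 24 h minus 12 h in purple circles, with bars for the SE, in Caki-1 (left) and 769-P (right). The later step lies between -2.74 and -0.72 in Caki-1 and between -3.31 and -1.67 in 769-P for the 11 that fell, against -0.59 at the lowest for the earlier step.

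Outside the mitotic list KIF12 moved most, and upward. KIF12 is a little-studied kinesin-12 motor that in mouse has been proposed as a modifier of polycystic kidney disease. KIF12 read 6.41, 7.10 and 6.64 under DMSO, 6.97, 7.10 and 7.21 at 6 h, 7.51, 7.63 and 7.74 at 12 h and 8.52, 8.18 and 8.23 at 24 h in Caki-1. In 769-P it read 7.06, 7.33 and 7.43 under DMSO, 8.21, 7.94 and 8.15 at 6 h, 8.42, 8.79 and 9.06 at 12 h and 9.38, 9.19 and 9.25 at 24 h. In both lines the group means climbed at each time, and at 24 h no array overlapped DMSO. The KIF12 difference from DMSO was 0.38 ± 0.15 (adjusted p = 0.0787), 0.91 ± 0.15 (adjusted p = 0.000123) and 1.59 ± 0.15 (adjusted p = 2.37e-07) at 6, 12 and 24 h in Caki-1, and 0.83 ± 0.14 (adjusted p = 0.000298), 1.48 ± 0.14 (adjusted p = 4.11e-07) and 2.0 ± 0.14 (adjusted p = 7.24e-09) in 769-P. The signal at 24 h was 3.02-fold higher in Caki-1 and 4.01-fold higher in 769-P. Each later step also rose: by 0.54 ± 0.15 (adjusted p = 0.015) and 0.68 ± 0.15 (adjusted p = 0.00369) in Caki-1, and by 0.65 ± 0.14 (adjusted p = 0.00404) and 0.52 ± 0.14 (adjusted p = 0.0119) in 769-P. The 12 to 24 h step in 769-P was lost without 12 h replicate 1 (adjusted p = 0.0681), and the 6 to 12 h step in Caki-1 without 12 h replicate 3 (0.0681).

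Of the 24 other kinesins tested in Caki-1, 2 were called higher at 6 h (12.3% of genes were) and 8 at 12 h (24.1%), with 2 (14%) and 3 (24.4%) called lower. Of the 23 tested in 769-P, 3 were called higher at 6 h (16.4% of genes) and 5 at 12 h (24.9%), with 2 (14.5%) and 5 (22.6%) called lower. At 24 h KIF12, KIF13B, KIF3A and KIFC2 rose in both lines, 4 of the 9 that rose in Caki-1 and of the 8 in 769-P. KIF24, KIF1C, KIF5B and KIF2A fell in both, 4 of the 6 that fell in Caki-1 and all 4 in 769-P. KIF21A fell in Caki-1 and rose in 769-P. The share of all genes called the same way in both lines was not counted. These overlaps are therefore not read as a response particular to the other kinesins.

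Of the kinesin-1 heavy chains, KIF5B is the one made in most tissues and KIF5A and KIF5C are mainly neuronal. KIF5B averaged 11.84 ± 0.11, 11.9 ± 0.0415, 11.65 ± 0.183 and 11.36 ± 0.0569 under DMSO and at 6, 12 and 24 h in Caki-1 (SD, n = 3 each). In 769-P it averaged 10.94 ± 0.111, 10.72 ± 0.0599, 10.61 ± 0.121 and 10.29 ± 0.348. It fell at 24 h in both lines (-0.48 ± 0.08, adjusted p = 8.11e-05 in Caki-1 and -0.65 ± 0.13, adjusted p = 0.000375 in 769-P). It also fell at 12 h in 769-P (-0.32 ± 0.13, adjusted p = 0.047), a call lost without 12 h replicate 3 (adjusted p = 0.172). KIF5A was not called at any time (24 h change 0.19 in Caki-1 and -0.04 in 769-P), and KIF5C stayed under the filter.

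Kinesin-2 is the motor of cilium building: KIF3A pairs with KIF3B and the linker KIFAP3, KIF3C is an alternative partner of KIF3A, and KIF17 runs alone. In Caki-1, KIF3A signals were 8.11, 8.17 and 8.38 under DMSO, 8.16, 8.46 and 8.32 at 6 h, 8.55, 8.58 and 8.52 at 12 h and 8.74, 8.55 and 8.59 at 24 h. 769-P gave 7.45, 7.87 and 7.94 under DMSO, 7.65, 8.19 and 8.0 at 6 h, 8.06, 8.28 and 8.37 at 12 h and 8.59, 8.71 and 8.81 at 24 h. From 12 h every dasatinib array lay above all DMSO arrays of its line, in both lines. KIF3A changed by 0.33 ± 0.10 (adjusted p = 0.00984) and 0.41 ± 0.10 (adjusted p = 0.00173) at 12 and 24 h in Caki-1, and by 0.48 ± 0.15 (adjusted p = 0.0125) and 0.95 ± 0.15 (adjusted p = 4.07e-05) in 769-P. With the mean of its probe sets in place of the brightest, the Caki-1 change at 24 h was 0.09 (adjusted p = 0.523), since a second probe set gave 0.07 and another, dim one gave -0.22. The 769-P call at 12 h was lost without DMSO replicate 1 (0.0744) or 12 h replicate 3 (0.0563).

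KIF3C went different ways in the lines. Caki-1 arrays gave KIF3C values of 7.66, 7.48 and 7.34 under DMSO, 8.29, 8.05 and 8.11 at 6 h, 8.02, 8.18 and 8.13 at 12 h and 8.26, 8.13 and 8.17 at 24 h. 769-P arrays read 8.65, 8.63 and 8.96 under DMSO, 8.82, 8.89 and 8.88 at 6 h, 8.24, 8.34 and 8.38 at 12 h and 8.92, 8.65 and 8.97 at 24 h. All 9 dasatinib arrays of Caki-1 lay above its DMSO arrays, and in 769-P only the 12 h arrays stood apart, on the low side. The KIF3C difference from DMSO was 0.65 ± 0.10 (adjusted p = 0.000158), 0.62 ± 0.10 (adjusted p = 9.14e-05) and 0.69 ± 0.10 (adjusted p = 1.79e-05) in Caki-1 (6, 12 and 24 h), and 0.12 ± 0.10 (adjusted p = 0.458), -0.43 ± 0.10 (adjusted p = 0.00298) and 0.10 ± 0.10 (adjusted p = 0.462) in 769-P. From 12 to 24 h it rose again in 769-P by 0.52 ± 0.10 (adjusted p = 0.00137), after a change of -0.54 ± 0.10 (adjusted p = 0.00177) from 6 to 12 h.

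KIF17 rose in Caki-1 at 12 h (0.39 ± 0.11, adjusted p = 0.00812) and 24 h (0.54 ± 0.11, adjusted p = 0.000536), with group means of 5.785 ± 0.102 under DMSO, 5.842 ± 0.168 at 6 h, 6.178 ± 0.135 at 12 h and 6.328 ± 0.0385 at 24 h (SD, n = 3 each). KIF17 was not called in 769-P. Its Caki-1 means lay under that of the red cell gene HBB there (7.265), and whether its probe set reads the transcript was not tested. Over all arrays of a line, KIF13A, KIF1A, KIF26B, KIF25-AS1, KIF5A, KIF6, KIF21B, KIF18B, KIF15, KIF24 and KIFC2 also averaged under HBB in both lines. KIF13B and KIF16B did so in Caki-1 alone. Under DMSO, KIF15 averaged above HBB, at 7.934 in Caki-1 and 7.752 in 769-P. KIF3B rose at 24 h in 769-P by 0.23 ± 0.07 (adjusted p = 0.00749), with all 3 arrays between 10.51 and 10.54, against 10.3 to 10.31 under DMSO, and was not called in Caki-1 (-0.10 ± 0.06, adjusted p = 0.157). The mean of its probe sets gave 0.05 in 769-P (adjusted p = 0.538).

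Kinesin-3 carries endosomes and vesicles, and its members split. For KIF13B the Caki-1 arrays read 6.81, 6.50 and 6.66 under DMSO, 7.24, 6.80 and 6.61 at 6 h, 7.52, 7.33 and 7.45 at 12 h and 7.45, 7.46 and 7.42 at 24 h. The 769-P arrays of KIF13B read 7.42, 7.49 and 7.44 under DMSO, 7.71, 7.96 and 7.91 at 6 h, 8.08, 8.12 and 8.03 at 12 h and 8.27, 8.28 and 8.09 at 24 h. KIF13B, which moves vesicles with DLG scaffolds, was above DMSO on every array from 12 h in Caki-1 and from 6 h in 769-P. It changed by 0.78 ± 0.14 (adjusted p = 0.000217) and 0.79 ± 0.14 (adjusted p = 0.00012) at 12 and 24 h in Caki-1, and by 0.41 ± 0.09 (adjusted p = 0.00263), 0.63 ± 0.09 (adjusted p = 3.25e-05) and 0.76 ± 0.09 (adjusted p = 2.73e-06) in 769-P.

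KIF1C, a motor of Golgi and adhesion traffic, went down. KIF1C read 8.67, 8.72 and 8.67 under DMSO, 8.53, 8.35 and 8.32 at 6 h, 8.26, 7.88 and 8.11 at 12 h and 8.01, 7.82 and 7.99 at 24 h in Caki-1. In 769-P it read 9.16, 9.07 and 9.15 under DMSO, 9.10, 8.88 and 8.98 at 6 h, 8.45, 8.42 and 8.52 at 12 h and 8.60, 8.39 and 8.42 at 24 h. Dasatinib arrays lay under all DMSO arrays at each time in Caki-1 and from 12 h in 769-P. KIF1C changed by -0.60 ± 0.10 (adjusted p = 0.000134) and -0.75 ± 0.10 (adjusted p = 9.63e-06) at 12 and 24 h in Caki-1, and by -0.66 ± 0.08 (adjusted p = 9.16e-06) and -0.65 ± 0.08 (adjusted p = 6.55e-06) in 769-P. Its 6 h fall in Caki-1 (-0.29 ± 0.10, adjusted p = 0.0454) was lost without any of 7 single arrays, such as 6 h replicate 3 (adjusted p = 0.155).

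The endosome motors KIF13A and KIF16B rose in Caki-1 alone among the calls, and the difference from 769-P did not pass the test for either. KIF13A changed by 0.51 ± 0.13 (adjusted p = 0.00744), 0.44 ± 0.13 (adjusted p = 0.00972) and 0.53 ± 0.13 (adjusted p = 0.0018) there, and its second probe set gave -0.12 at 24 h. KIF16B changed by 0.36 ± 0.10 (adjusted p = 0.00897) and 0.35 ± 0.10 (adjusted p = 0.00788), against -0.65 on its second probe set, and the mean of both turned the 24 h value to -0.15 (adjusted p = 0.112). KIF1B (-0.16 ± 0.06, adjusted p = 0.0431 in Caki-1 at 24 h) and KIF1A (0.27 ± 0.10, adjusted p = 0.034 in Caki-1 at 24 h and 0.31 ± 0.12, adjusted p = 0.0495 in 769-P at 12 h) sat near the threshold. KIF1B was lost without Caki-1 DMSO replicate 1 (0.151), and KIF1A without Caki-1 DMSO replicate 3 (0.135) or, in 769-P, without DMSO replicate 1 (0.171).

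In kinesin-4, KIF21A, which pauses microtubule growth at the cell edge, read 11.06 ± 0.0303 under DMSO, 11.23 ± 0.102 at 6 h, 10.89 ± 0.0774 at 12 h and 10.81 ± 0.131 at 24 h in Caki-1 (SD, n = 3 each). In 769-P it read 11.84 ± 0.0802, 12.27 ± 0.0319, 12.03 ± 0.0308 and 12.02 ± 0.0168. It fell at 24 h in Caki-1 (-0.24 ± 0.07, adjusted p = 0.00851) and rose at each time in 769-P (0.43 ± 0.05, adjusted p = 1.18e-05, 0.19 ± 0.05, adjusted p = 0.00653 and 0.18 ± 0.05, adjusted p = 0.00763 at 6, 12 and 24 h). The 24 h call in 769-P was lost without DMSO replicate 2 (adjusted p = 0.0501). KIF21B was called at no time in either line, nor was KIF7, the Hedgehog regulator of the cilium tip, in Caki-1, where alone it was tested.

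Among the kinesin-13 motors, which take microtubules apart, KIF24 acts at centrioles, where it holds back cilium growth. In Caki-1, KIF24 signals were 6.89, 6.83 and 6.60 under DMSO, 7.13, 6.80 and 7.12 at 6 h, 6.99, 6.63 and 6.70 at 12 h and 6.06, 5.56 and 6.24 at 24 h. 769-P gave 7.54, 7.49 and 7.49 under DMSO, 7.81, 7.58 and 7.63 at 6 h, 7.20, 7.57 and 7.32 at 12 h and 6.21, 6.53 and 6.26 at 24 h. In both lines the 24 h arrays lay below all the rest. KIF24 changed by -0.82 ± 0.16 (adjusted p = 0.000466) in Caki-1 and by -1.17 ± 0.12 (adjusted p = 3.31e-07) in 769-P, and by -0.82 ± 0.16 (adjusted p = 0.00191) and -1.03 ± 0.12 (adjusted p = 7.41e-06) over the step from 12 to 24 h, the same interval as the mitotic kinesins. A dimmer probe set gave 0.14 in Caki-1 and 0.19 in 769-P at 24 h.

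KIF2A, the sister of KIF2C that works at spindle poles and in neurites, averaged 9.888 ± 0.0527, 9.681 ± 0.185, 9.578 ± 0.0478 and 9.452 ± 0.0858 under DMSO and at 6, 12 and 24 h in Caki-1 (SD, n = 3 each). In 769-P it averaged 9.245 ± 0.0151, 8.95 ± 0.0157, 8.822 ± 0.235 and 8.721 ± 0.0934. It changed by -0.31 ± 0.09 (adjusted p = 0.0074) and -0.44 ± 0.09 (adjusted p = 0.000407) at 12 and 24 h in Caki-1, and by -0.30 ± 0.10 (adjusted p = 0.0346), -0.42 ± 0.10 (adjusted p = 0.00231) and -0.52 ± 0.10 (adjusted p = 0.000297) in 769-P, where the 6 h call was lost without any 1 of the 6 arrays compared (adjusted p = 0.0716 to 0.0812).

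KIF9, a motor of motile cilia, rose at 24 h in 769-P (0.63 ± 0.09, adjusted p = 2.71e-05), with arrays at 10.08, 9.86 and 9.87, against 9.28, 9.29 and 9.37 under DMSO. In Caki-1 its arrays read 8.58, 8.52 and 8.50 at 24 h, against 8.60, 8.66 and 8.58 under DMSO (-0.08 ± 0.09, adjusted p = 0.474). KIF26B, needed for kidney development in mouse, rose only at 12 h in Caki-1 (0.31 ± 0.11, adjusted p = 0.0342) among its tests, and not without DMSO replicate 3 (adjusted p = 0.163). KIF6 was called nowhere. KIF25-AS1 rose at 24 h in 769-P (0.32 ± 0.13, adjusted p = 0.0455), a call lost without DMSO replicate 2 (0.151) or 24 h replicate 1 (0.204).

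The minus-end motors outside mitosis that were tested, KIFC2 and KIFC3, both changed. KIFC2 is known from neurons. Caki-1 arrays gave KIFC2 values of 6.49, 6.44 and 6.19 under DMSO, 6.33, 6.15 and 6.21 at 6 h, 6.43, 6.62 and 6.56 at 12 h and 7.75, 7.03 and 6.91 at 24 h. 769-P arrays read 6.98, 6.72 and 6.80 under DMSO, 6.78, 6.94 and 7.05 at 6 h, 6.69, 6.58 and 7.06 at 12 h and 7.84, 7.19 and 7.53 at 24 h. Only the 24 h arrays stood above DMSO, in each line. KIFC2 changed by 0.86 ± 0.17 (adjusted p = 0.000463) in Caki-1 and by 0.69 ± 0.16 (adjusted p = 0.00141) in 769-P, and from 12 to 24 h by 0.70 ± 0.17 (adjusted p = 0.00793) and by 0.74 ± 0.16 (adjusted p = 0.00226).

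KIFC3, which works at apical vesicles and cell junctions, dipped and came back. For KIFC3 the Caki-1 arrays read 10.75, 10.74 and 10.83 under DMSO, 10.49, 10.38 and 10.27 at 6 h, 10.37, 10.52 and 10.69 at 12 h and 10.88, 10.82 and 10.78 at 24 h. The 769-P arrays of KIFC3 read 10.49, 10.49 and 10.63 under DMSO, 9.90, 9.63 and 9.80 at 6 h, 9.67, 9.42 and 9.96 at 12 h and 10.29, 10.21 and 10.31 at 24 h. The 6 and 12 h arrays lay below DMSO in both lines, and at 24 h the Caki-1 arrays overlapped it again while those of 769-P remained lower. KIFC3 changed by -0.39 ± 0.08 (adjusted p = 0.00174) and -0.25 ± 0.08 (adjusted p = 0.0176) at 6 and 12 h in Caki-1, and by -0.76 ± 0.11 (adjusted p = 6.84e-05) and -0.85 ± 0.11 (adjusted p = 9.98e-06) in 769-P. From 12 to 24 h it rose by 0.30 ± 0.08 (adjusted p = 0.0118) in Caki-1 and by 0.59 ± 0.11 (adjusted p = 0.000909) in 769-P. At 24 h the difference from DMSO was 0.05 ± 0.08 (adjusted p = 0.571) in Caki-1 and -0.27 ± 0.11 (adjusted p = 0.0502) in 769-P, where the replicate block gave an adjusted p of 0.012. The Caki-1 calls were lost at 12 h without DMSO replicate 3 (0.0709) or 12 h replicate 1 (0.0783), and over the later step without 12 h replicate 1 (0.055).

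Over the steps, 3 of 24 other kinesins rose (12.5% of genes) and 3 fell (14.5%) from 6 to 12 h in Caki-1, and 4 rose (10.9% of genes) and 2 fell (14.2%) from 12 to 24 h. In 769-P 1 of 23 rose (8.91% of genes) and 3 fell (10.2%) over the first step, and 6 rose (17.0% of genes) and 1 fell (10.8%) over the second. KIF24 was the one that fell there. KIF19, KIF25, KIF26A, KIF27, KIF2B and KIF5C were under the filter in both lines and KIF7 in 769-P, so they have no test.

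**Figure D4:**
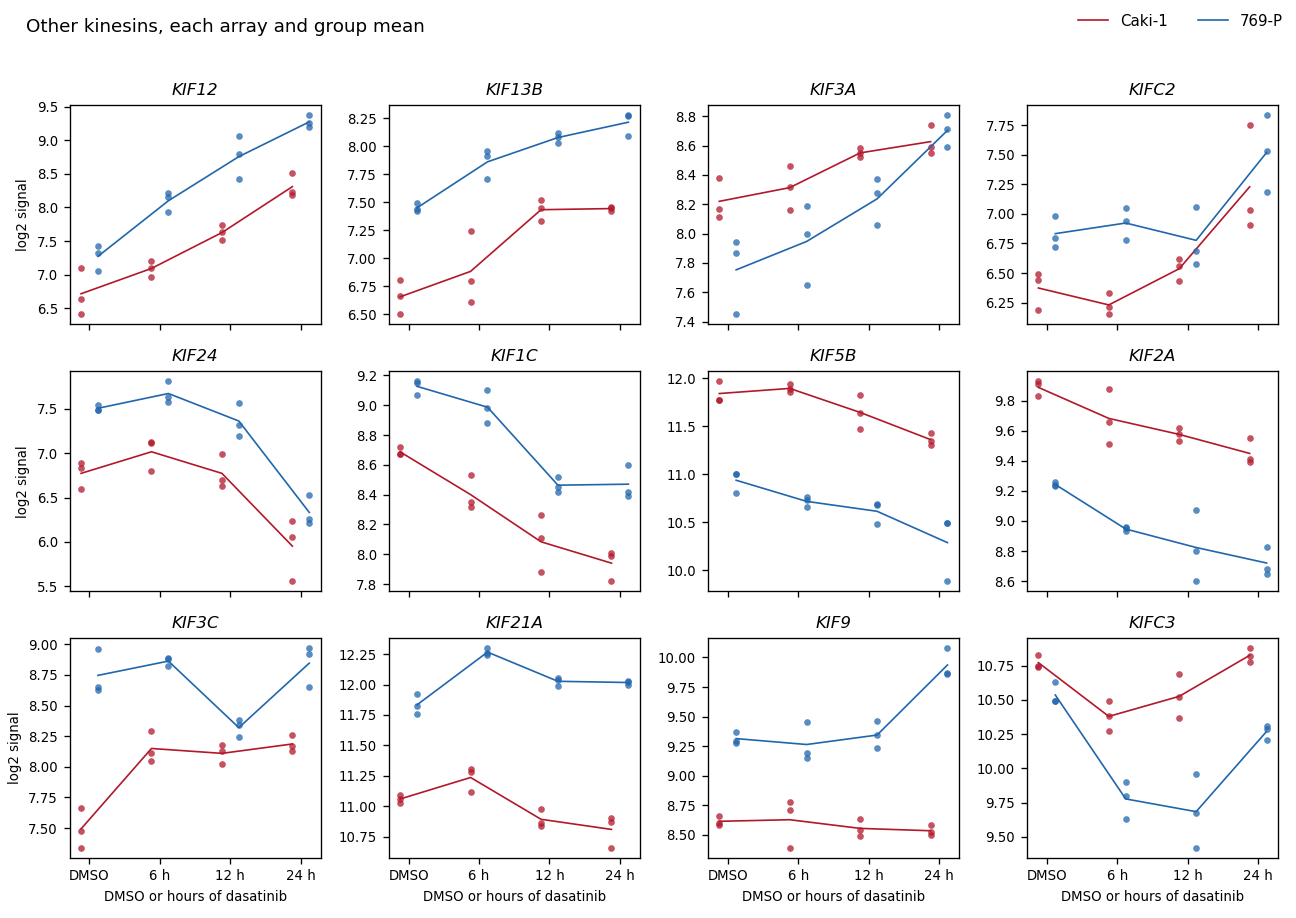
Log2 signal (y axis, a scale of its own in each panel) of 12 other kinesins on each of 24 arrays under DMSO and after 6, 12 and 24 h of dasatinib (x axis), with lines through group means, Caki-1 in red and 769-P in blue. KIF12 climbs at each time in both lines, KIF24 drops at 24 h, KIFC3 dips at 6 and 12 h, and KIF3C departs upward in Caki-1 only.

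Whether the lines differed in these changes was tested by the interaction, which subtracts the change in 769-P from that in Caki-1. At 24 h 6 of 12 mitotic kinesins had a positive difference that passed (13.8% of genes did), that is, a smaller fall in Caki-1 than in 769-P: KIFC1 (0.99 ± 0.23, adjusted p = 0.00145), KIF4A (0.92 ± 0.19, adjusted p = 0.000467), KIF22 (0.87 ± 0.15, adjusted p = 7.37e-05), KIF23 (0.85 ± 0.20, adjusted p = 0.00168), KIF2C (0.79 ± 0.19, adjusted p = 0.00171) and KIF11 (0.77 ± 0.13, adjusted p = 8.14e-05). None of the mitotic list had a negative one at 24 h (22.1% of genes did). The other 6 did not pass. The 95% intervals of the difference were -0.09 to 0.84 for KIF14, -0.11 to 0.66 for KIF15, -0.11 to 0.64 for KIF20B, -0.79 to 0.24 for KIF18A and -0.02 to 0.62 for KIF18B, and that of KIF20A (0.03 to 0.99) lay above 0 before adjustment.

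At 12 h KIF18A was the 1 mitotic kinesin with a difference (-0.84 ± 0.25, adjusted p = 0.0185), below 0 as were 10.3% of genes, and the call was lost without Caki-1 12 h replicate 2 (adjusted p = 0.0511), Caki-1 12 h replicate 3 (0.0655) or 769-P 12 h replicate 2 (0.0523). KIF3C differed at each time, by 0.54 ± 0.14 (adjusted p = 0.0181) at 6 h, 1.04 ± 0.14 (adjusted p = 9.58e-06) at 12 h and 0.59 ± 0.14 (adjusted p = 0.00229) at 24 h. It was the only kinesin with a difference at 6 h, where 3.68% of genes had a positive and 4.42% a negative one, and that call was lost without Caki-1 DMSO replicate 3 or 769-P DMSO replicate 3 (0.0643 each) or Caki-1 6 h replicate 1 (0.055). KIFC3 differed at 12 h (0.61 ± 0.14, adjusted p = 0.00323, where 8.67% of genes had a positive difference), with the smaller dip in Caki-1, and so did KIF21A (-0.35 ± 0.09, adjusted p = 0.00527). At 24 h the differences below 0 were those of KIF9 (-0.71 ± 0.13, adjusted p = 0.000199), KIF3A (-0.54 ± 0.18, adjusted p = 0.0239), KIF21A (-0.42 ± 0.09, adjusted p = 0.000538) and KIF3B (-0.33 ± 0.08, adjusted p = 0.00366). The KIF3A difference was lost without 769-P DMSO replicate 1 (0.0886), Caki-1 DMSO replicate 3 (0.0736), 769-P 24 h replicate 3 (0.0593) or Caki-1 24 h replicate 2 (0.0563).

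**Figure D5:**
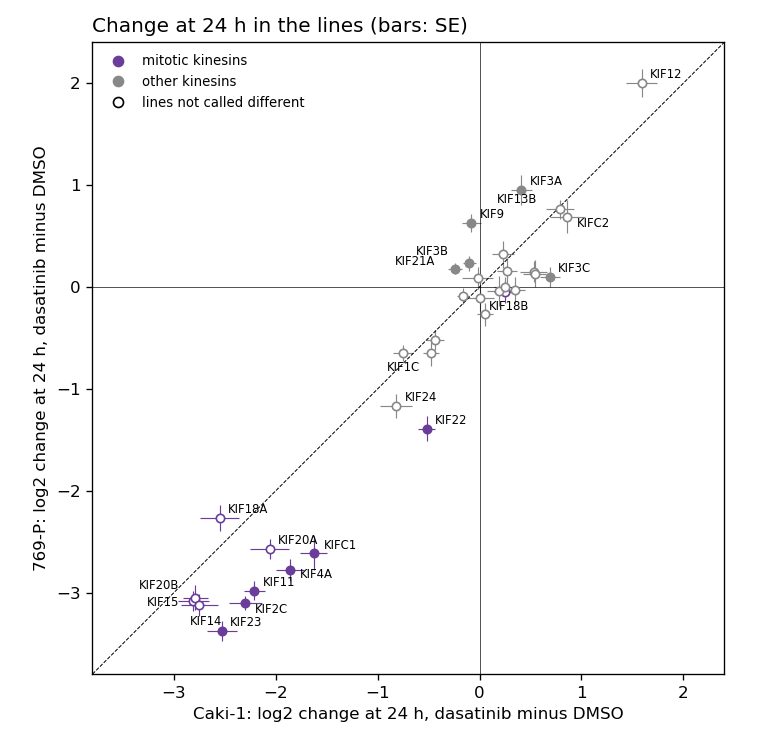
Log2 change at 24 h of each kinesin tested in both lines, dasatinib minus DMSO, in Caki-1 (x axis) and 769-P (y axis), with bars for the SE and a dashed line of equal change. Filled points passed the test of the difference between lines, and purple points are mitotic kinesins. The 6 filled mitotic kinesins lie below the dashed line, further down in 769-P, and KIF9, KIF3A, KIF21A and KIF3B lie above it.

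Without drug the lines also differed. Under DMSO 5 of 12 mitotic kinesins were lower in Caki-1 than in 769-P (29.9% of genes were), namely KIFC1 (-0.72 ± 0.16, adjusted p = 0.000448), KIF14 (-0.70 ± 0.16, adjusted p = 0.000471), KIF20A (-0.50 ± 0.16, adjusted p = 0.0111), KIF20B (-0.35 ± 0.13, adjusted p = 0.0218) and KIF11 (-0.30 ± 0.09, adjusted p = 0.00766), and none was higher (28.8% of genes). Of the others 9 of 24 were lower and 7 higher in Caki-1. KIF16B averaged 6.246 ± 0.0984 in Caki-1 and 8.233 ± 0.172 in 769-P (SD, n = 3 each), the widest gap (-1.99 ± 0.12, adjusted p = 6.79e-13), followed by KIF3C (-1.25 ± 0.10, adjusted p = 1.01e-10). KIF5B (0.90 ± 0.11, adjusted p = 2.06e-07) and KIF2A (0.64 ± 0.09, adjusted p = 2.18e-06) were higher in Caki-1. The 7 include KIF7, which was under the filter in 769-P and entered through Caki-1 alone. Its direction was therefore set by the filter and is not a result, and no size is given for it. The KIF20B difference was lost without Caki-1 DMSO replicate 2 or 769-P DMSO replicate 2 (adjusted p = 0.114 each), that of KIF20A without Caki-1 DMSO replicate 2 (0.0763), that of KIFC2 without Caki-1 DMSO replicate 3 (0.119), and that of KIFC3 without any of 11 single arrays, such as Caki-1 DMSO replicate 3 (0.132).

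Transcripts of the proteins that mitotic kinesins work with were also lower at 24 h. Of 23 tested partners, 22 fell and 1 rose at 24 h in each line (29.9% of all genes fell and 32.9% rose in Caki-1, 24.6% and 31.1% in 769-P), with medians of -2.02 in Caki-1 and -2.77 in 769-P. Among the largest falls were ANLN, which is anillin (-3.06 ± 0.18 in Caki-1 and -3.31 ± 0.08 in 769-P), CDK1, the mitotic kinase (-2.74 ± 0.12 and -3.58 ± 0.1), DLGAP5, a protein of spindle microtubules near chromosomes (-2.58 ± 0.21 in Caki-1), and MKI67, the surface protein of mitotic chromosomes (-3.69 ± 0.08 in 769-P), with adjusted p from 7.39e-14 to 4.36e-08. The kinetochore kinesin CENPE fell as well (-2.0 ± 0.13 in Caki-1, adjusted p = 6.7e-09, and -2.98 ± 0.1 in 769-P, adjusted p = 1.73e-12). RACGAP1, the partner of KIF23, changed by -2.12 ± 0.12 and -2.28 ± 0.08. NUMA1, a pole protein that binds dynein, was the 1 that rose, by 0.83 ± 0.08 and 0.95 ± 0.08.

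Among regulators of late cell cycle genes, at 24 h 14 of 19 had fallen in Caki-1 (29.9% of genes had) and 1 had risen (32.9%), and in 769-P 12 had fallen (24.6%) and 5 had risen (31.1%), the last being near the share of all genes. The medians were -0.48 and -0.50. FOXM1 (-2.12 ± 0.15 and -2.84 ± 0.12), the DREAM and B-MYB subunit LIN9 (-1.9 ± 0.13 and -1.85 ± 0.1), MYBL2, which is B-MYB (-1.46 ± 0.14 and -1.83 ± 0.11), and E2F1 (-1.5 ± 0.13 and -1.58 ± 0.21) fell furthest, while RBL2, a pocket protein of DREAM, rose (0.58 ± 0.09 and 0.40 ± 0.09), with adjusted p from 2.15e-11 to 0.000741. The others that rose in 769-P were NFYC, TFDP2, LIN37 and NFYA. In Caki-1 TFDP2, LIN37 and NFYA fell and NFYC was not called. RBL1, another pocket protein, fell (-0.48 ± 0.16, adjusted p = 0.0175 in Caki-1 and -0.52 ± 0.16, adjusted p = 0.0108 in 769-P).

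Tubulin transcripts were mostly lower as well. Of 11 tested tubulins, at 24 h 10 had fallen in Caki-1 (29.9% of genes had) and 1 had risen (32.9%), and in 769-P 8 had fallen (24.6%) and 2 had risen (31.1%), with medians of -1.08 and -1.04. The list holds TUBG1, TUBD1 and other tubulins that are not the alpha and beta chains of the microtubule wall. TUBB4B (-1.43 ± 0.07 and -1.85 ± 0.06), TUBA4A (-1.17 ± 0.07 and -1.74 ± 0.12), TUBD1 (-1.19 ± 0.16 and -0.70 ± 0.15) and the pole tubulin TUBG1 (-1.2 ± 0.08 and -1.05 ± 0.07) fell in both lines, with adjusted p from 5.1e-13 to 0.00079. TUBA1A rose in both, by 0.98 ± 0.08 (4.56e-08) in Caki-1 and 2.43 ± 0.22 (1.3e-07) in 769-P. At 6 h 6 of 11 tubulins had already fallen in Caki-1 (14% of genes had) and 5 of 11 in 769-P (14.5%). Tubulin genes are alike in sequence, so a probe set may read more than 1 of them.

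Of the adaptors and linkers of transport kinesins, 10 of 18 rose (32.9% of genes did) and 2 fell (29.9%) at 24 h in Caki-1, and 8 of 17 rose (31.1%) and 2 fell (24.6%) in 769-P. TRAK1, which ties mitochondria to kinesin-1, rose by 0.93 ± 0.08 (adjusted p = 1.64e-07) in Caki-1 and 0.83 ± 0.11 (1.15e-05) in 769-P. CLSTN1, a cargo receptor for kinesin light chains (0.68 ± 0.06 in Caki-1), the scaffold MAPK8IP3 (0.59 ± 0.12 and 0.79 ± 0.16) and FYCO1, an autophagosome adaptor (0.72 ± 0.12 in 769-P), rose as well, with adjusted p from 2.49e-07 to 0.000555. KIFAP3, the linker of KIF3A and KIF3B, rose by 0.42 ± 0.08 (0.00044) and 0.53 ± 0.08 (1.81e-05). KIFBP, which holds kinesins off microtubules, fell (-0.54 ± 0.1, adjusted p = 0.000262, and -0.20 ± 0.07, 0.0335).

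Of the opposing motor dynein and its activator dynactin, 14 of 24 genes rose (32.9% of all genes did) and 7 fell (29.9%) at 24 h in Caki-1, and 12 rose (31.1%) and 6 fell (24.6%) in 769-P. The counts that fell lie near the shares of all genes. SPDL1, the kinetochore adaptor of dynein known as Spindly, fell furthest (-2.23 ± 0.11 in Caki-1, adjusted p = 3.29e-10, and -3.3 ± 0.08 in 769-P, 8.33e-14). The light chain DYNLT1 rose by 0.75 ± 0.07 (1.46e-07) in Caki-1, and DYNLRB1 by 0.9 ± 0.09 (2.78e-07) in 769-P. The DYNLL2 light chain changed by -0.67 ± 0.07 (7.29e-07) in Caki-1, and NDE1, which recruits dynein in mitosis, by -0.83 ± 0.11 (6.81e-06) in 769-P.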

How the data were processed

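Gene expression was measured on 24 arrays, 3 in each of 8 groups. The deposited values are log2 signals per probe set, made with MAS5 per the submitters' processing notes, and no further processing is given in the sources used here. They were used as deposited. Of 49395 probe sets, 44988 name 1 gene, and each gene was read from its brightest one. R 4.3.3 with limma 3.58.1 (lmFit and eBayes with an intensity trend) was fitted over all genes above the 40th percentile in a line, on the 12 arrays of that line (8 residual degrees of freedom), or on all 24 for differences between lines (16). P-values were adjusted by Benjamini and Hochberg. The fit was tested on simulated data. Each member was named or counted. Values of each array were given for the mitotic kinesins and for the 4 other kinesins per line with the largest called 24 h change without overlap, and log2 changes for up to 3 called genes of each partner list per line. KIFC3, KIF3C, KIF1C and KIF9, and CENPE, RACGAP1, NUMA1, RBL1, RBL2, KIFAP3 and KIFBP, were added after their values were seen. The members and lists were chosen with earlier results of these data known.

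Same-numbered samples of both groups correlated above 0.1 in every pair in 769-P at 6 h (0.11 to 0.36) and 24 h (0.12 to 0.17) against DMSO, in both 6 to 12 h steps and in the 769-P 12 to 24 h step, and only there were the numbers taken as pairs. That pairing comes from the values and not from a statement in the labels. Alternatives covered the filter, quantile and median scaling, the trend, the arrays in the fit, the probe set rule, the replicate block and leaving out each array. The number of arrays limits the precision. Promoter windows came from RefSeq (GRCh38.p14). Figures were drawn with Python 3.11.15 and matplotlib 3.10.9.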

Additional observations from a re-analysis of the deposited data

Results flagged for a closer look

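The results below stand out because the dasatinib response differed between the lines by the interaction test in limma (Caki-1 change minus 769-P change, log2, with adjusted p). At 24 h the mitotic kinesins KIFC1 (0.99, 0.00145), KIF4A (0.92, 0.000467), KIF22 (0.87, 7.37e-05), KIF23 (0.85, 0.00168), KIF2C (0.79, 0.00171) and KIF11 (0.77, 8.14e-05) had the smaller fall in Caki-1. KIF3C differed at 6 h (0.54, 0.0181), 12 h (1.04, 9.58e-06) and 24 h (0.59, 0.00229). KIFC3 differed at 12 h (0.61, 0.00323), as did KIF18A (-0.84, 0.0185) and KIF21A (-0.35, 0.00527). At 24 h KIF21A (-0.42, 0.000538), KIF9 (-0.71, 0.000199), KIF3A (-0.54, 0.0239) and KIF3B (-0.33, 0.00366) had negative differences. Groups of 3 arrays were too small for a test of single outlying arrays.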

How the results depend on the processing

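Of 102 calls against DMSO, 66 were kept under every alternative run, as were 37 of 51 calls over time steps, 10 of 16 differences between lines and 15 of 21 differences under DMSO. The mitotic kinesins that fell at 24 h numbered 11 in each line under every array left out. The calls that changed with the setting were mostly small changes at 6 and 12 h. In Caki-1 the 24 h value of KIF1B turned to 0.01 and that of KIF16B to -0.15 with the mean of all single-gene probe sets in place of the brightest, since their probe sets differ.

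Counts of members called moved most where 1 array was left out. At 6 h in Caki-1 the 7 calls ran from 3 to 9, with 4 left without Caki-1 DMSO replicate 2 and 3 without DMSO replicate 3. At 12 h in Caki-1 the 17 ran from 10 to 18, with 10 left without DMSO replicate 3. At 6 h in 769-P the 13 ran from 7 to 15, with 7 left without DMSO replicate 2 and 8 without 6 h replicate 2. From 6 to 12 h the 11 in Caki-1 ran from 3 to 13, with 6 left without 6 h replicate 1 or 12 h replicate 2 and 3 without 12 h replicate 3, and the 5 in 769-P from 5 to 7. The 1 difference between lines at 6 h ran from 0 to 2 and was 0 with the mean of probe sets. The 4 differences between lines at 12 h ran from 3 to 6.

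The replicate block changed the call count from 7 to 11 at 6 h in Caki-1, where KIF2C (0.3, adjusted p = 0.00255), KIFC1 (0.35, 0.00692), KIF11 (0.24, 0.0173) and KIF21A (0.18, 0.0261) were added. Over all tested genes, same-numbered samples there correlated at -0.02 to 0.31, so the numbers were not taken as pairs. For KIF2C, KIFC1 and KIF11 themselves, the Caki-1 array numbered 1 was the highest in all 4 groups. The count went from 5 to 8 for the 6 to 12 h step in 769-P, where the numbers were taken as pairs, and from 1 to 2 for the line difference at 6 h. Over all 499 values the block added 24 calls and lost 2. Beside the results named in the text, KIF3A in 769-P was called over the 6 to 12 h step with the block (0.29, adjusted p = 0.0314), and the block changed no other call in the paired comparisons.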

Other observations

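Among the 3 Caki-1 arrays of each group, the array numbered 1 gave the highest value in all 4 groups for 7 of the 12 mitotic kinesins, which were KIF11, KIF14, KIF18A, KIF20A, KIF2C, KIF4A and KIFC1. None of the other tested kinesins had array 1 as the highest in all 4 groups of Caki-1, and for KIF1A it was array 2. The share of all genes with this pattern was not counted, so whether it is particular to mitotic kinesins was not tested. These are the values of 4 arrays that share only a replicate number in the labels.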
